A study of Homo sapiens with 6 samples.

Results

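The expression of 10 genes was followed across PC-3 tumors: the ligands VEGFA, VEGFB, VEGFC and PGF, the receptors KDR and FLT1, the co-receptors NRP1 and NRP2, and the angiogenic factors ANGPTL4 and FGF2. They were taken from the deposited expression table by gene symbol alone, and all 10 were found, each as 1 entry, among 24000 gene entries. PC-3 cells are an established human line from prostate cancer and grow without androgens. Per the labels, RNA came from xenograft tumors in nude mice, 3 of them given vehicle and 3 given WCE, a standardized extract of Wedelia chinensis, and the labels record a treatment of 10 weeks and no dose. For its animal work the study describes PC-3 cells carrying firefly luciferase, injected into the anterior prostate of male athymic nude mice obtained at 6 weeks of age, with vehicle or WCE given by gavage. All tumors thus stem from 1 cell line, and the hosts lack T cells but keep their own myeloid and endothelial cells, so that the vessels of these tumors are of mouse origin. Values are FPKM, fragment counts scaled to transcript length and to the number of fragments mapped in each library, which allow levels of different genes to be compared.

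VEGF family ligands are secreted dimers that bind receptor tyrosine kinases on endothelial cells and drive the growth of blood and lymphatic vessels. VEGFA acts mainly through KDR, also called VEGF receptor 2, while FLT1, VEGF receptor 1, binds VEGFA tightly with little kinase output and also binds VEGFB and PGF. Neuropilins present several of these ligands to the receptors and are found on many carcinoma cells as well. Tumors often make the ligands in their cancer cells, where low oxygen raises VEGFA and ANGPTL4 transcription, whereas the receptors are typical of the vessel wall.

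The libraries labeled vehicle replicate 3 and WCE replicate 1 stood apart from the rest by their likeness. Over 1915 entries with a mean of at least 50 FPKM their median absolute log2 difference was 0.0276, while the remaining 14 pairs of tumors ranged from 0.0950 to 0.247. No entry was above 0 in WCE replicate 1 and at 0 in vehicle replicate 3, and the 9 members tested differed between these libraries by 0.014 to 0.17 on the log2(FPKM + 1) scale. Whether both hold reads of 1 library was not tested, and if they do, the means, SDs and p-values over 3 tumors a group rest on fewer independent tumors than that. Since they carry different treatments they were kept as labeled, and the members and the genes with an unadjusted p under 0.05 are also given without them, as 2 tumors against 2. Because 1 of the pair is in each group, leaving both out enlarges most differences by construction. The table holds no read counts, and judged by the steps between its lowest values WCE replicate 1 had the least depth, 25.0% of that of vehicle replicate 3, against 64.8% to 85.2% in the other 4 tumors. The epithelial markers KRT8, KRT18 and KRT19 were high in every tumor (KRT19 at 539 ± 122 FPKM under vehicle and 531 ± 108 FPKM under WCE, SD, n = 3 each). The other epithelial markers read, EPCAM and CDH1, were lower in WCE-treated tumors (log2 fold change −0.73 and −0.47, given below).

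In the order of their levels the members fell into 3 tiers. NRP1 was by far the most abundant, from 232 to 336 FPKM over the 6 tumors, and no other member reached its range. VEGFC (51.6 to 87.0 FPKM), ANGPTL4 (15.3 to 69.1 FPKM) and VEGFA (21.7 to 44.2 FPKM) followed, with ranges that overlapped between neighbors, and VEGFB, at 12.8 to 19.1 FPKM, lay below every value of VEGFC and VEGFA, overlapped the lowest values of ANGPTL4 and exceeded every value of the remaining genes. FGF2 (1.65 to 2.75 FPKM), NRP2 (1.28 to 3.46 FPKM), KDR (0.216 to 5.12 FPKM) and PGF (0.463 to 1.01 FPKM) made up the lowest tier, where each gene overlapped the next. FLT1 was listed at 0 or close to it throughout. These are levels of the human gene entries. How reads of the mouse host were handled is not given, and receptor transcripts of the mouse vessels were not analysed separately.

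**Figure D1:**
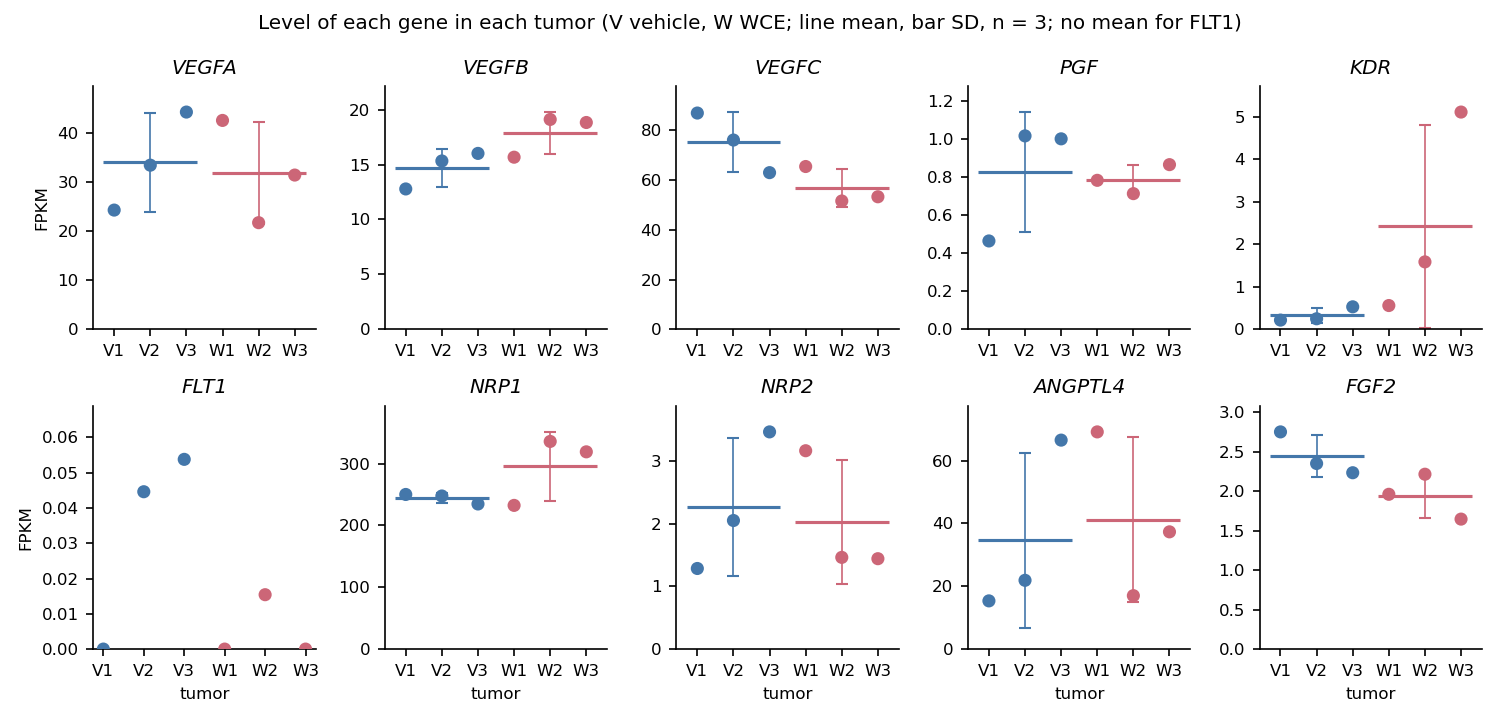
FPKM of each of the 10 genes (vertical axis, from 0, a scale of its own in each panel) in vehicle-treated tumors (V1 to V3, blue) and WCE-treated tumors (W1 to W3, red), with the mean as a line and the SD as a bar (n = 3), neither drawn for FLT1. V3 and W1 sit close together in most panels, and KDR in W3, at 5.12 FPKM, stands above all other tumors.

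WCE-treated and vehicle-treated tumors were compared by limma, with values as log2(FPKM + 1) and 13287 entries averaging at least 0.5 FPKM, with Benjamini-Hochberg adjustment of p over all of these entries. Of the 10 members, 9 passed this filter, and KDR did so only through its values in WCE-treated tumors. VEGFC (lower) and KDR (higher) had an unadjusted p under 0.05, which 7.1% of all entries tested had, 3.78% with the higher level under WCE and 3.33% with the lower, and 0 of the 9 had an adjusted p under 0.05, which 0.00753% of entries had. The lowest adjusted p among the members was 0.623 by limma. In KDR and FGF2 the groups did not overlap, with the WCE-treated tumors above in KDR and below in FGF2, and no overlap was seen in 12.8% of entries (6.37% above, 6.4% below). The median log2 fold change was −0.017 over the 9 members and −0.0063 over all entries tested.

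**Figure D2:**
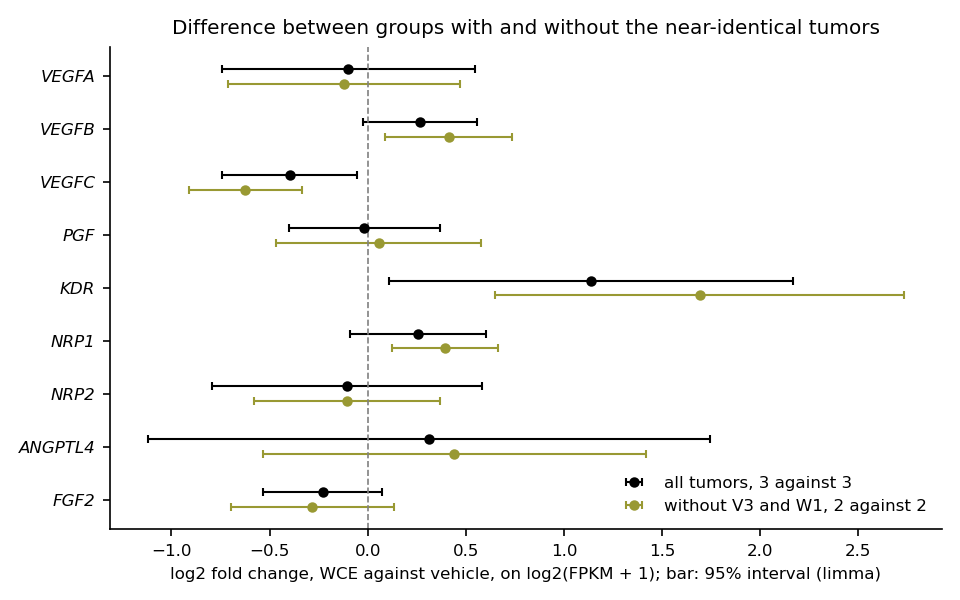
Log2 fold change of WCE-treated against vehicle-treated tumors on the log2(FPKM + 1) scale (horizontal axis) for the 9 members tested, with 95% intervals from limma, for all 6 tumors (black) and for 2 against 2 without V3 and W1 (olive). The black intervals of VEGFC and KDR exclude 0, and without V3 and W1 those of VEGFB and NRP1 do so too.

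Among the ligands, VEGFC was lower and VEGFB higher in WCE-treated tumors on average, with overlapping groups. VEGFA and PGF showed no difference beyond the spread between tumors. By exact permutation of the tumors, two-sided p was 0.2 for VEGFC and 0.2 for VEGFB. VEGFC, which acts on lymphatic endothelium through FLT4 and also binds KDR, is listed on chromosome 4 from 177604691 to 177713895 of hg19. It had 87.0, 76.1 and 63.0 FPKM in the vehicle-treated and 65.5, 51.6 and 53.3 FPKM in the WCE-treated tumors. The 2 lowest tumors were both WCE-treated, and the groups overlapped only through the near-identical libraries, with vehicle replicate 3 just below WCE replicate 1. The means were 75.4 ± 12.0 and 56.8 ± 7.56 FPKM (SD, n = 3 each). On the log2(FPKM + 1) scale the difference was −0.40, 95% interval from −0.74 to −0.054 (unadjusted p = 0.0287, adjusted p = 0.623 by limma). With the near-identical libraries left out it was −0.62 (unadjusted p = 0.00241, adjusted p = 0.174 by limma). The unadjusted p was above 0.05 without vehicle replicate 1 (log2 fold change −0.29), vehicle replicate 2 (−0.39), WCE replicate 2 (−0.33) or WCE replicate 3 (−0.36), always with the same sign.

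VEGFB, a ligand of FLT1 and NRP1, is listed on chromosome 11 from 64002056 to 64006736. Its values were 12.8, 15.3 and 16.0 FPKM in vehicle-treated tumors against 15.7, 19.1 and 18.8 FPKM in WCE-treated tumors. WCE replicates 2 and 3 were the highest tumors, and the groups overlapped because WCE replicate 1 lay under vehicle replicate 3. The log2 fold change was 0.27 (95% interval −0.025 to 0.56, unadjusted p = 0.0679, adjusted p = 0.623 by limma) over all tumors and 0.41 without the near-identical libraries (unadjusted p = 0.0218, adjusted p = 0.216 by limma). Without WCE replicate 1 alone it was 0.35, with an unadjusted p of 0.0273 by limma.

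VEGFA, the main blood vessel ligand of the family, is listed on chromosome 6 from 43737946 to 43754223. It was at 24.3, 33.4 and 44.2 FPKM in vehicle-treated tumors and at 42.5, 21.7 and 31.4 FPKM in WCE-treated tumors. The near-identical libraries were its highest tumors, and both groups covered almost the same range. Its log2 fold change of −0.099 had a 95% interval from −0.74 to 0.55 (unadjusted p = 0.731, adjusted p = 0.929 by limma), and the sign turned without vehicle replicate 3 (0.11) or without WCE replicate 2 (0.14). PGF, a ligand of FLT1 listed on chromosome 14 from 75408533 to 75422467, was low, with 0.463, 1.01 and 0.999 FPKM under vehicle and 0.781, 0.712 and 0.864 FPKM in WCE-treated tumors. All WCE-treated tumors lay within the range of the vehicle group, and the log2 fold change was −0.017 (95% interval −0.40 to 0.37).

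The summed level of the 4 ligands was 124 to 126 FPKM in each vehicle-treated tumor and in WCE replicate 1, and 93.1 and 104 FPKM in WCE replicates 2 and 3. VEGFC made up 69.9%, 60.5% and 50.7% of this sum in vehicle-treated tumors and 52.6%, 55.4% and 51.1% in WCE-treated tumors, and so was the most abundant ligand transcript in each of the 6. VEGFB made up 10.3%, 12.2% and 12.9% against 12.6%, 20.5% and 18.0%. Its share was thus highest in the same WCE-treated tumors in which the sum was lowest (exact permutation test of the difference in share, two-sided p = 0.2). The VEGFA share was 27.2 ± 8.07% under vehicle and 29.2 ± 5.49% under WCE (SD, n = 3 each), differing by 1.97 percentage points, within the spread between tumors (exact permutation test, two-sided p = 0.8). Without vehicle replicate 1 the difference was −1.88 and without WCE replicate 1 it was −0.52 percentage points.

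**Figure D3:**
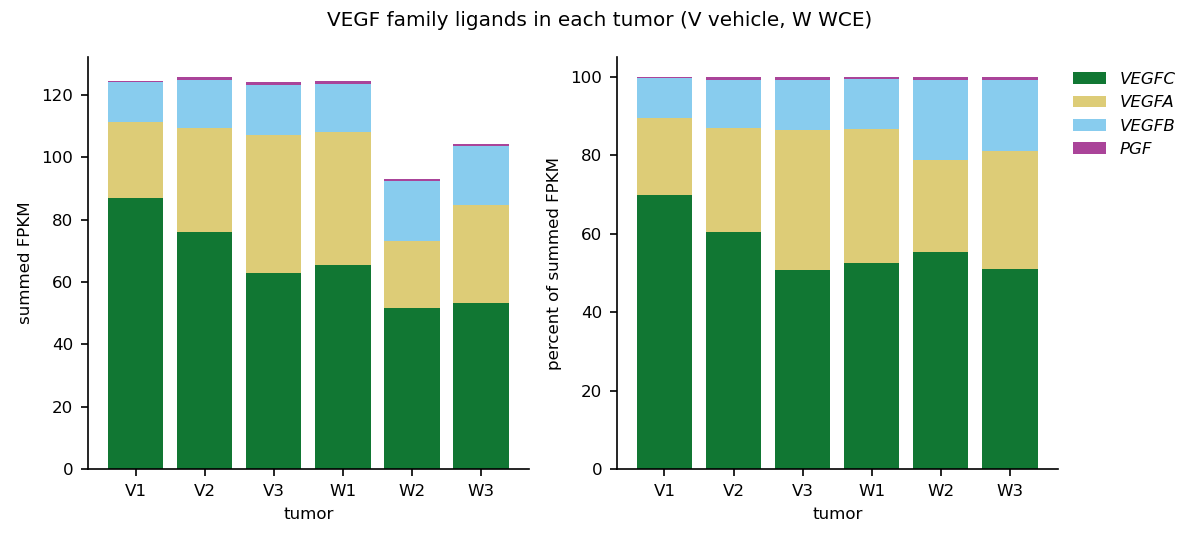
Summed FPKM of VEGFC, VEGFA, VEGFB and PGF (left, vertical axis in FPKM) and the percent of that sum held by each (right) in every tumor, V1 to V3 vehicle-treated and W1 to W3 WCE-treated. VEGFC is the largest part of every bar, and W2 and W3 have the lowest sums, 93.1 and 104 FPKM, with the largest VEGFB parts, 20.5% and 18.0%.

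The receptor KDR had the largest log2 fold change of the 9 members tested, from a very low level. Its mean under vehicle, 0.330 FPKM, was under the filter, so KDR was tested only because of its values under WCE. KDR carries most of the growth signal of VEGFA into endothelial cells and is listed on chromosome 4 from 55944426 to 55991762. Its values were 0.216, 0.247 and 0.529 FPKM in vehicle-treated tumors and 0.559, 1.59 and 5.12 FPKM in WCE-treated tumors. All WCE-treated tumors lay above all vehicle-treated ones, but WCE replicate 1 exceeded vehicle replicate 3 by only 0.028 on the log2(FPKM + 1) scale. The mean level was 7.33 times higher in WCE-treated tumors, and the log2 fold change, which the added 1 FPKM understates at such levels, was 1.14 with a 95% interval from 0.11 to 2.17 (unadjusted p = 0.0345, adjusted p = 0.623 by limma). By exact permutation of the tumors p was 0.1, below which 3 against 3 cannot go. WCE replicate 3 decided much of the size, since the log2 fold change was 0.60 without it (unadjusted p = 0.0541 by limma), and the unadjusted p was also above 0.05 without vehicle replicate 1 (1.08), vehicle replicate 2 (1.09), vehicle replicate 3 (1.24) or WCE replicate 2 (1.22). Without both near-identical libraries it was 1.69 (unadjusted p = 0.00839, adjusted p = 0.188 by limma), and with a pseudocount of 0.1 in place of 1 it was 2.13. With no filter on low values the unadjusted p of KDR was 0.0933 by limma.

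FLT1, on chromosome 13 from 28874483 to 29069265, was listed at 0, 0.0446 and 0.0538 FPKM in vehicle-treated tumors and at 0, 0.0154 and 0 FPKM in WCE-treated tumors. At these values no difference was detectable, and it was not tested. The receptor of VEGFC on lymphatic vessels, FLT4, was at 0.0163 FPKM in vehicle replicate 1 and listed at 0 in the other 5 tumors.

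Because KDR marks endothelial cells, a list of 17 endothelial markers was read beside it. The table lists human gene symbols, and the processing notes name the human build hg19 and the mouse build mm10 without saying how reads of the host were handled. CDH5, VWF, TEK, CLDN5, EMCN, ERG, CLEC14A and PLVAP, 8 of the 17, stayed under 0.5 FPKM in each tumor, and EMCN was at 0 in all of them. The vascular cadherin CDH5 was at 0.0358, 0.0768 and 0.0232 FPKM in vehicle-treated tumors and at 0, 0.0273 and 0.0434 FPKM in WCE-treated tumors, highest in vehicle replicate 2. The transcription factor SOX18, under the filter and not tested, was at 0, 0.0406 and 0.0613 FPKM in vehicle-treated tumors and at 0.122, 0.647 and 0.306 FPKM in WCE-treated tumors, without overlap. ERG, likewise untested, went the other way without overlap, at 0.159, 0.183 and 0.0504 FPKM under vehicle and 0.0405, 0 and 0.0126 FPKM under WCE. These markers were chosen with their values in view. No overlap was seen in 12.8% of the entries tested, and the share among entries under the filter was not computed. The summed level of the list was 10.1, 18.7 and 18.0 FPKM under vehicle and 19.4, 18.2 and 20.0 FPKM in WCE-treated tumors. Vehicle replicate 1 alone lay well below the rest. Of the 8 markers tested, 7 had a positive log2 fold change, from 0.033 in ROBO4 to 0.77 in TIE1, and S1PR1 had a negative one (−0.24). Over all 13287 entries tested, 6459 had a positive one. An unadjusted p under 0.05 was seen in 1 marker, against 7.1% of all entries. This was the orphan receptor TIE1, which like KDR passed the filter only through the WCE group, at 0.429 ± 0.281 FPKM under vehicle and 1.55 ± 1.02 FPKM under WCE (SD, n = 3 per group, log2 fold change 0.77, unadjusted p = 0.0392, adjusted p = 0.623 by limma). With 2 tumors against 2 the log2 fold change of TIE1 was 1.15 (unadjusted p = 0.00801 by limma), and that of ROBO4 turned to −0.049. TIE1 was highest in WCE replicate 2, at 2.59 FPKM, and KDR in WCE replicate 3. The most abundant markers of the list were EGFL7, at 4.98 ± 2.65 and 5.50 ± 2.71 FPKM, and the co-receptor ENG, at 2.07 ± 0.605 and 3.09 ± 1.30 FPKM (SD, n = 3 each), and neither had an unadjusted p under 0.05. In bulk tumors, fewer cells of a type and less RNA per cell cannot be told apart. Whether the reads of these human entries came from PC-3 cells or from mouse host cells was not tested.

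**Figure D4:**
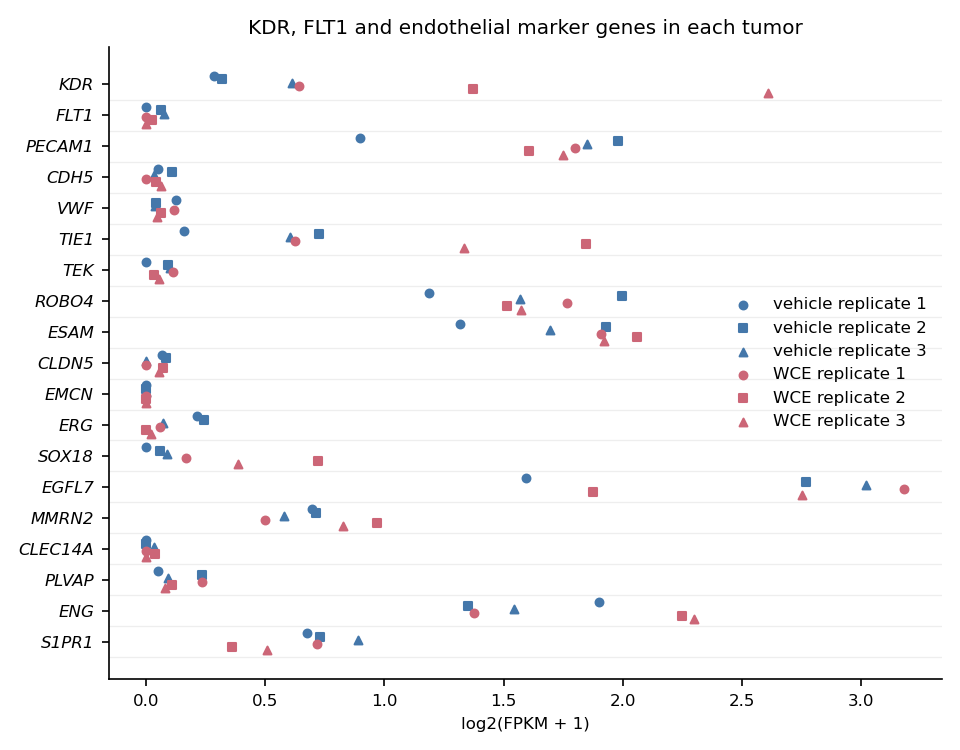
Log2(FPKM + 1) (horizontal axis) of KDR, FLT1 and the 17 endothelial markers in each vehicle-treated (blue) and WCE-treated (red) tumor, with the symbol giving the replicate. KDR spreads from 0.216 to 5.12 FPKM, whereas CDH5, VWF, CLDN5, EMCN and CLEC14A lie next to 0 in all 6 tumors.

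Of the other lists of cell types, the lymphatic markers summed to 2.78 to 5.95 FPKM under vehicle and 5.91 to 6.85 FPKM in WCE-treated tumors, most of it PDPN (4.52 ± 1.78 and 6.16 ± 0.488 FPKM, SD, n = 3 each), LYVE1 was at 0 throughout, and PROX1 stayed under 0.5 FPKM. Mural cell markers summed to 44.7 to 52.1 and 34.9 to 51.4 FPKM, most of it the adhesion molecule MCAM, followed by NOTCH3, while the pericyte receptor PDGFRB reached at most 0.102 FPKM and the muscle filament DES at most 0.0224 FPKM. Myeloid markers summed to 25.8 to 41.4 and 40.4 to 44.7 FPKM, almost wholly the lysosomal CD68, with TYROBP at 0 in all tumors ITGAM and CSF1R under 0.5 FPKM, and the leukocyte antigen PTPRC at most 0.666 FPKM. Fibroblast markers summed to 53.0 to 60.3 and 45.3 to 74.3 FPKM, led by COL1A1 and PDGFRA, with DCN and THY1 under 0.5 FPKM. At an unadjusted p under 0.05, none of the 1 lymphatic, 5 mural and 1 myeloid markers tested differed by limma, while LUM among 4 fibroblast markers and EPCAM and CDH1 among 5 epithelial markers were lower in WCE-treated tumors (log2 fold change −0.85, −0.73 and −0.47, each with an adjusted p of 0.623), against 3.33% of all entries. LUM passed the filter only through the vehicle group. As 2 tumors against 2 the values were −1.31, −1.08 and −0.68 (unadjusted p = 0.00139, 0.000551 and 0.000936 by limma). In that fit CD68 was higher (0.57) and MCAM lower (−0.40), with unadjusted p of 0.00712 and 0.0252 by limma. Of all entries, 8.84% were higher and 9.59% lower at an unadjusted p under 0.05 in that fit. PDGFRA of the fibroblast list went from 7.62 ± 3.53 FPKM under vehicle to 19.1 ± 14.4 FPKM under WCE (SD, n = 3 each, unadjusted p = 0.203 by limma). Their part in the levels of the members was not tested.

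The co-receptor NRP1, which also binds class 3 semaphorins, is listed on chromosome 10 from 33466419 to 33623833. It had 250.006, 247.5 and 234.6 FPKM under vehicle and 232.3, 335.8 and 318.9 FPKM in WCE-treated tumors. WCE replicates 2 and 3 stood above the other 4 tumors, which lay close together, and WCE replicate 1 was the lowest of all. The log2 fold change was 0.26 (95% interval −0.088 to 0.60, unadjusted p = 0.123, adjusted p = 0.623 by limma), and 0.39 without the near-identical libraries (unadjusted p = 0.0128, adjusted p = 0.1997 by limma). It was 0.42 without WCE replicate 1 alone (unadjusted p = 0.00593) and 0.16 without WCE replicate 2.

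NRP2, on chromosome 2 from 206547224 to 206662857, is the neuropilin that works with VEGFC and FLT4. Its values were 1.28, 2.05 and 3.46 FPKM under vehicle and 3.16, 1.46 and 1.44 FPKM in WCE-treated tumors. The near-identical libraries were again the highest, and the groups overlapped almost fully (log2 fold change −0.10, 95% interval −0.79 to 0.58, unadjusted p = 0.733 by limma). Its sign turned in fits without vehicle replicate 3 (0.15), WCE replicate 2 (0.020) or WCE replicate 3 (0.026). NRP1 exceeded NRP2 by 67.8 to 195 times in vehicle-treated tumors and by 73.5 to 230 times in WCE-treated tumors.

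ANGPTL4, a secreted inhibitor of lipoprotein lipase that is induced by PPAR receptors and by hypoxia, varied most between tumors among the abundant members. It is listed on chromosome 19 from 8429011 to 8439257, and had 15.3, 21.9 and 66.5 FPKM under vehicle and 69.1, 17.0 and 37.3 FPKM in WCE-treated tumors. The near-identical libraries lay far above the rest, 1 in each group, and the highest tumor had 4.51 times the level of the lowest. The log2 fold change of 0.31 had a 95% interval from −1.12 to 1.75 (unadjusted p = 0.626, adjusted p = 0.881 by limma). It was −0.11 without vehicle replicate 1, −0.16 without WCE replicate 1, 0.91 without vehicle replicate 3, 0.82 without WCE replicate 2, 0.13 without vehicle replicate 2 and 0.44 without the near-identical libraries.

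FGF2, a heparin-binding growth factor that acts on endothelial cells through FGF receptors, is listed on chromosome 4 from 123747863 to 123844159. It had 2.75, 2.35 and 2.24 FPKM under vehicle and 1.96, 2.22 and 1.65 FPKM in WCE-treated tumors. Each WCE-treated tumor lay below each vehicle-treated one, by little in the case of WCE replicate 2. The log2 fold change was −0.23 (95% interval −0.53 to 0.072, unadjusted p = 0.116, adjusted p = 0.623 by limma; exact permutation test, two-sided p = 0.1, the smallest it allows) and −0.28 without the near-identical libraries (unadjusted p = 0.144). FGF2 shares its listed locus with NUDT6, an antisense gene, and as the use of strand in counting is not given, their reads cannot be told apart.

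Without the near-identical libraries, VEGFB, VEGFC, KDR and NRP1 had an unadjusted p under 0.05, where 18.4% of all entries did (8.84% higher and 9.59% lower under WCE), and 0 of the 9 members had an adjusted p under 0.05 (lowest 0.174 by limma), where 0.0376% of entries did. The groups of 2 did not overlap in 5 of the 9 members, against 53.5% of all entries.

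To show the DNA in front of these genes, the 250 bases before the transcription start were read from RefSeq promoters of GRCh38.p14, a build other than that of the table, for the 8 members found there (VEGFB, VEGFC, PGF, KDR, FLT1, NRP2, ANGPTL4 and FGF2). VEGFC, KDR and VEGFB are printed because they led the differences in ligands and receptors, and ANGPTL4 for its range between tumors. They lie at chr4:176792923-176793172 (minus strand), chr4:55125596-55125845 (minus strand), chr11:64234334-64234583 (plus strand) and chr19:8363905-8364154 (plus strand). Capitals mark the GC box GGGCGG or its complement CCGCCC, to which SP1 binds. They also mark the hypoxia response core in its form ACGTG or the complement CACGT, and the TATA motif TATAAA or its complement TTTATA. All were searched on both strands with every match counted.
VEGFC: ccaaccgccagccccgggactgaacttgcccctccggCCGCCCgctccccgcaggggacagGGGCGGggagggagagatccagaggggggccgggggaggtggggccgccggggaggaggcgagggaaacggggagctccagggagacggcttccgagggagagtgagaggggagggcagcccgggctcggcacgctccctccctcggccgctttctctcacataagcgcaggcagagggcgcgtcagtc
KDR: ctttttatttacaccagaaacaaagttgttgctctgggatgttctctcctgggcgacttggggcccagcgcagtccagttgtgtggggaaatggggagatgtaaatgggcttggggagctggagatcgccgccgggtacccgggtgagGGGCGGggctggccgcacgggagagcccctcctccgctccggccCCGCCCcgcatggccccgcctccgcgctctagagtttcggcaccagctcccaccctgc
VEGFB: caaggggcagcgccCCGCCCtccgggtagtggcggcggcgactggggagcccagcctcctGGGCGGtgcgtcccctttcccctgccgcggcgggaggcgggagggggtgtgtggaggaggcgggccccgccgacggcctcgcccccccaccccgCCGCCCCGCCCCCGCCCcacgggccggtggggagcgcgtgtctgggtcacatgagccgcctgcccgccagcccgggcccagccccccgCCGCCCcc
ANGPTL4: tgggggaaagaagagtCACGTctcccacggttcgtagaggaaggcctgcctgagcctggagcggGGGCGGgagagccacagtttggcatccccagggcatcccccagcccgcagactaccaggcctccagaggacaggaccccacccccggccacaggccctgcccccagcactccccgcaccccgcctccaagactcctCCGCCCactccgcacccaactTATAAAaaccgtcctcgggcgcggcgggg
Each of the 8 members held a GC box in this window, as did 42.6% of all 35116 promoters of the same length. Their windows were 65.2% to 82.8% G and C, against a median of 58.0% over all promoters. The comparison was not matched for this. VEGFB had 6, of which 3 overlap or lie end to end, and VEGFC, KDR and ANGPTL4 had 2 each. The letters ACGTG or CACGT were found in ANGPTL4, from position −234 relative to the start, and in none of the other 7, against 18.5% of all promoters. The other form of the hypoxia response core, GCGTG, was not searched for. A TATA motif began at position −29 in ANGPTL4 and −31 in FLT1, against 10.7% of all promoters. These matches describe the letters of the window and say nothing about binding.

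Other genes of the same pathways were read in 9 lists by role, 82 genes of which 60 passed the filter. Of these 60, 5 were higher and 1 was lower in WCE-treated tumors at an unadjusted p under 0.05, against 7.1% of all entries tested, and 0 had an adjusted p under 0.05 (lowest 0.623 by limma). Their median log2 fold change was 0.040. Without the near-identical libraries 11 were higher and 7 lower, where 8.84% and 9.59% of all entries were, and 0 had an adjusted p under 0.05 (lowest 0.171 by limma).

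Partners of the VEGF ligands and neuropilins gave no gene with an unadjusted p under 0.05 among 8 tested. The most abundant were GIPC1, which binds the tail of NRP1 inside the cell (94.7 ± 6.41 FPKM under vehicle and 84.7 ± 3.25 FPKM in WCE-treated tumors), and the semaphorin SEMA3C (77.6 ± 18.2 and 67.1 ± 17.1 FPKM, SD, n = 3 each). VEGFD, the ligand closest to VEGFC, is listed in 1 entry with PIR under its older symbol FIGF, so its own level could not be read, although this joined entry counts among the 8 and the 60 and among the 7 lower ones. In the FGF list, 2 of 8 genes tested were higher at an unadjusted p under 0.05, against 3.78% of all entries. FGFR1, a receptor of FGF2, was at 5.45 ± 2.05 FPKM under vehicle and 9.23 ± 1.44 FPKM under WCE (SD, n = 3 per group, log2 fold change 0.71, unadjusted p = 0.0201, adjusted p = 0.623 by limma). Its groups did not overlap, as in 12.8% of all entries. HSPG2, the proteoglycan perlecan that binds FGF2 in basement membranes, was at 20.5 ± 5.90 and 41.8 ± 16.5 FPKM (SD, n = 3 per group, log2 fold change 0.96, unadjusted p = 0.0152, adjusted p = 0.623 by limma). FGFR4, the other FGF receptor above 0.5 FPKM, had a log2 fold change of −0.23 (unadjusted p = 0.250 by limma), and FGFR2 and FGFR3 stayed under 0.5 FPKM. Without the near-identical libraries the log2 fold change was 1.04 for FGFR1 and 1.44 for HSPG2 (unadjusted p = 0.00627 and 0.00189 by limma). The syndecans SDC1 and SDC4, the most abundant of the list, had unadjusted p of 0.234 and 0.973 by limma.

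Among angiopoietins and TIE receptors 2 of 6 genes could be tested, TIE1, given above, and ANGPT1, at 0.715 ± 0.184 and 1.11 ± 0.440 FPKM (SD, n = 3 each, unadjusted p = 0.166 by limma). Of the relatives of ANGPTL4 and the genes of lipoprotein lipase, 7 of 9 were under 0.5 FPKM in all tumors, LPL included, and the 2 tested, ANGPTL6 and LMF1, had unadjusted p of 0.168 and 0.482 by limma. The highest level of ANGPTL6 was 7.44 FPKM, under the lowest of ANGPTL4. No gene of the PDGF list (5 tested, led by PDGFC and PDGFB) or of the Notch list (6 tested, led by HEY1 and JAG1) had an unadjusted p under 0.05. In the fit of 2 tumors against 2, 3 PDGF genes had an unadjusted p under 0.05 and were higher, with log2 fold changes of 1.39 for PDGFRA, 0.52 for PDGFA and 0.52 for PDGFD. The Notch ligand JAG1 was lower, at −0.42. Their adjusted p by limma was 0.174, 0.234, 0.271 and 0.183 in this order. Of all entries, 8.84% were higher and 9.59% lower at an unadjusted p under 0.05 in this fit.

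Of 11 other angiogenic factors tested, EDN1, a vasoconstrictor peptide, was lower at an unadjusted p under 0.05, at 8.60 ± 0.663 FPKM under vehicle and 6.12 ± 2.09 FPKM under WCE (SD, n = 3 per group, log2 fold change −0.47, unadjusted p = 0.0447, adjusted p = 0.623 by limma). Of all entries, 3.33% were lower at that threshold. MDK and CYR61 were the most abundant of the other angiogenic factors and had unadjusted p of 0.215 and 0.141 by limma. Without the near-identical libraries the log2 fold change of EDN1 was −0.73 (unadjusted p = 0.00220 by limma). Among 7 endogenous inhibitors of angiogenesis tested, 2 were higher and 0 lower at an unadjusted p under 0.05, against 3.78% and 3.33% of all entries. VASH1, made by endothelial cells in response to VEGFA, was at 3.27 ± 0.646 and 5.94 ± 1.81 FPKM (log2 fold change 0.68, unadjusted p = 0.0137), and COL18A1, from which endostatin is cut, was at 16.8 ± 6.15 and 25.2 ± 3.90 FPKM (log2 fold change 0.61, unadjusted p = 0.0483), both with an adjusted p of 0.623 by limma and with all WCE-treated tumors above all vehicle-treated ones (SD, n = 3 each). Over all entries, 6.37% had all WCE-treated tumors above all vehicle-treated ones. With both near-identical libraries left out the log2 fold changes of VASH1 and COL18A1 were 0.97 and 0.90 (unadjusted p = 0.00339 and 0.0230 by limma). THBS1, thrombospondin 1, did not pass, with 178, 218 and 229 FPKM under vehicle and 232, 79.8 and 89.5 FPKM in WCE-treated tumors. Its groups overlapped only through WCE replicate 1 (log2 fold change −0.80, unadjusted p = 0.0644, adjusted p = 0.623 by limma), and without the near-identical libraries the log2 fold change was −1.21 (unadjusted p = 0.000313, adjusted p = 0.171 by limma).

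Regulators of VEGFA and ANGPTL4 transcription gave 0 of 11 genes with an unadjusted p under 0.05. HIF1A, whose protein drives the response to low oxygen, was at 44.9 ± 5.22 and 42.0 ± 5.61 FPKM, and PPARG, an inducer of ANGPTL4, at 102 ± 13.98 and 94.4 ± 23.3 FPKM (SD, n = 3 each), with unadjusted p of 0.501 and 0.484 by limma. HSPG2, PDGFD, COL18A1, HIF1A, EGFL7, LYVE1, THY1, EPCAM, KRT8, KRT18, C10orf10, CECR5-AS1 and the angiopoietin-like genes other than ANGPTL4 share their listed locus with another entry, so how reads were split between them is uncertain.

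For 3 members the entries with the most similar profile over the 6 tumors were found by the root mean square difference of log2 values centered on their mean, a description over tumors of which 2 are near-identical. For VEGFA they included AK4 and PRDM1, which differed from it by 0.051 and 0.055, where the spread of VEGFA itself by the same measure was 0.37. AK4, a mitochondrial adenylate kinase, ran from 7.90, 11.4 and 13.6 FPKM in vehicle-treated to 13.7, 6.82 and 9.81 FPKM in WCE-treated tumors, highest in the same libraries as VEGFA. For ANGPTL4 the nearest were C10orf10, FN1 and SLPI, at 0.22 to 0.26 against a spread of 0.85, with FN1, the matrix protein fibronectin, at 33.5, 63.6, 136, 138, 30.3 and 66.9 FPKM in the same order of tumors. For KDR they were SPARC, CECR5-AS1 and MUC5B, at 0.30 to 0.37 against 0.82. SPARC, a matrix-binding glycoprotein, was at 45.0, 30.0 and 43.1 FPKM under vehicle and 43.1, 90.8 and 124 FPKM in WCE-treated tumors, and like KDR was highest in WCE replicate 3.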

How the data were processed

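The authors deposited 1 table of FPKM values with 24000 gene entries and 1 column per tumor. The submitters' processing notes name TopHat2 2.0.13, Cufflinks and the builds hg19 and mm10. The annotation, the handling of mouse reads and any scaling between tumors are not given in the sources used here. Libraries were stranded and made from polyadenylated RNA. Each column carries the description of 1 sample, and all were used. Listed starts count from 0 and are printed counted from 1.

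After transformation to log2(FPKM + 1), the 13287 entries averaging at least 0.5 FPKM were fitted with limma 3.58.1 in R 4.3.3 (mean-variance trend, two-sided, Benjamini-Hochberg adjustment, threshold 0.05). Single values were compared by exact permutation tests in scipy 1.17.1. Depth in reads is unknown and counting intervals could not be given. Relative depth came from the commonest ratio between low values. P-values set the difference between the groups against the spread between these tumors, the near-identical libraries included. The fit was tested on simulated data.

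The members and lists were chosen with earlier results of these data known. Genes named from each list were those with an unadjusted p under 0.05 (up to 4) and the 2 most abundant. For VEGFA, ANGPTL4 and KDR the 3 most similar entries were taken, of which 1 for VEGFA is not reported here. Markers at or near 0, VEGFD, FLT4, LPL, KRT8, SOX18, PDGFA, PDGFD, FGFR2, FGFR3 and FGFR4 fall outside this rule. So do ROBO4 and S1PR1. All of these were chosen with their values in view. The alternatives were a pseudocount of 0.1, no filter, median-ratio and upper-quartile scaling over the entries tested, no trend, array weights, a replicate block, each tumor left out in turn and the near-identical libraries left out together.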

Additional observations from a re-analysis of the deposited data

How the results depend on the processing

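Of the 9 members, VEGFB, VEGFC, KDR, NRP1 and FGF2 kept their direction in each of the 14 alternatives, and VEGFA, PGF, NRP2 and ANGPTL4 did not. The log2 fold change turned without vehicle replicate 3 for VEGFA (0.107), PGF (0.0557) and NRP2 (0.148), without WCE replicate 2 for VEGFA (0.143), PGF (0.0126) and NRP2 (0.0196), without WCE replicate 3 for NRP2 (0.0257), without vehicle replicate 2 for PGF (0.0612), without vehicle replicate 1 (−0.109) or WCE replicate 1 (−0.160) for ANGPTL4, and with both near-identical libraries left out for PGF (0.0569). With 1 tumor left out log2 fold changes spanned −0.326 to 0.143 for VEGFA, −0.169 to 0.0612 for PGF, −0.359 to 0.148 for NRP2 and −0.160 to 0.914 for ANGPTL4. The difference in the VEGFA share turned in the absence of vehicle replicate 1 (−1.88) or of WCE replicate 1 (−0.518) and ranged from −1.88 to 6.17 percentage points with 1 tumor left out.

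The 2 members with an unadjusted p under 0.05 became 0 with no filter on low values, 5 with limma array weights, 0 to 4 with 1 tumor left out, and 4 without the near-identical libraries. The 6 pathway genes became 1, 19, 2 to 14 and 18 in the same settings. Over all entries, the 944 with an unadjusted p under 0.05 became 3201 with array weights, lowest at 0.408 in vehicle replicate 1 and highest at 4.00 in WCE replicate 3, then 219 to 2033 with 1 tumor left out and 2449 without the near-identical libraries. The 1 entry with an adjusted p under 0.05 became 0 with no filter (1051 unadjusted), 1 to 7 with 1 tumor left out and 5 without the near-identical libraries. The lowest adjusted p of any member over all settings was 0.126 by limma, with array weights. Scaling moved the median of all entries by less than 0.1 on the log2 scale. Why the counts moved was not tested.

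With the replicate number as a block, 3 members had an unadjusted p under 0.05 (VEGFB joined VEGFC and KDR), 7 pathway genes, 1049 entries, and 1 entry after adjustment. The numbers were not taken to pair the tumors, since same-numbered tumors came from different mice. Their deviations from group means correlated by −0.24 to 0.16, and those of differently numbered tumors by −0.33 to 0.36. With 3 tumors a group these values cannot decide on pairing. KDR, PGF, NRP2 and FGF2, at a few FPKM or less, are the members that depth limits most, above all in WCE replicate 1.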
